A study of Mus musculus with 8 samples.

Results

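The enzymes that write, copy, read and remove DNA methylation were described in single mouse follicles through 10 genes: Dnmt1, Dnmt3a, Dnmt3b, Dnmt3l, Uhrf1, Tet1, Tet2, Tet3, Dppa3 and Kdm1b. They were chosen by symbol, with no measured value in the rule. All 10 were among the 21997 genes shared by the deposited count tables, and all 10 passed the low-count filter that left 17925 genes for testing. RNA came from C57BL/6 ovaries, from follicles that were separated singly with a needle, in 4 groups of 2 libraries each. SAF-TF were small antral follicles and PF-TF preantral follicles from transplanted female germline stem cells (FGSCs). SAF-WT were small antral and PF-WT preantral follicles from wild type mice. A preantral follicle is an oocyte within layers of granulosa cells, and a small antral follicle has begun to form a fluid-filled cavity. The labels do not give the age of the mice, the transplant hosts, the cells of a TF follicle that derived from the transplant, or whether the replicates came from separate mice. The p-values therefore measure the spread between these libraries, which may be technical.

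In mammals, DNA is methylated mainly at cytosines that precede guanine. DNMT3A and DNMT3B place new methyl groups, DNMT3L stimulates them without being an active enzyme itself, and DNMT1 copies the pattern after replication with UHRF1, which finds hemimethylated sites. TET1, TET2 and TET3 oxidise methylcytosine as a first step of its removal. In the mouse, the growing oocyte acquires most of its methylation, maternal imprints included, through DNMT3A and DNMT3L. DPPA3 (Stella) protects methylation of the maternal genome after fertilisation and keeps UHRF1 in check in the mouse oocyte, and KDM1B removes histone methyl marks that would block imprint acquisition.

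The RefSeq start windows of 5 transcripts are shown because the genes behind them fell between stages in both sources (Dnmt1, Dnmt3l, Tet3) or lay higher in every small antral library (Tet2), and because the cytosines on which these enzymes act lie in CG pairs. Each window holds 250 bases before and 50 after an annotated start on GRCm38.p6, 5′ to 3′ on the gene's strand, with CG pairs in capitals. Dnmt1 has 3 annotated starts, and its most upstream (chr9:20959839-20960138, minus strand) and most downstream (chr9:20952574-20952873, minus strand) windows are both given. Dnmt3l also has 3 annotated starts, and only its most upstream window (chr10:78042037-78042336, plus strand) is given. The others are Tet3 (chr6:83441629-83441928, minus strand) and Tet2 (chr3:133544341-133544640, minus strand). Uhrf1 and Dppa3 also fell between stages in both sources. The windows of Uhrf1 are not shown, and no window was found for Dppa3.
Dnmt1 upstream start: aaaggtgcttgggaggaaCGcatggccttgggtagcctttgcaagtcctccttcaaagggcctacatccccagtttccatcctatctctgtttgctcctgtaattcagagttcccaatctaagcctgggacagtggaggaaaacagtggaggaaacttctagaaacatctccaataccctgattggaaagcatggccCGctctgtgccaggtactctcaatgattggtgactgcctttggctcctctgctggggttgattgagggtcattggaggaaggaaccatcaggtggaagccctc
Dnmt1 downstream start: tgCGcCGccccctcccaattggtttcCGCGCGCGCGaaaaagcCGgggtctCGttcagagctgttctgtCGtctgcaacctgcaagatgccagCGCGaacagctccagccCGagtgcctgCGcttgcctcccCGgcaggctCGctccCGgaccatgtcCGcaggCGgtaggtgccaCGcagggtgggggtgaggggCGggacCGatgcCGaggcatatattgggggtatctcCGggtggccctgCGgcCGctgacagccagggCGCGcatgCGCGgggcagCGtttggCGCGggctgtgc
Dnmt3l upstream start: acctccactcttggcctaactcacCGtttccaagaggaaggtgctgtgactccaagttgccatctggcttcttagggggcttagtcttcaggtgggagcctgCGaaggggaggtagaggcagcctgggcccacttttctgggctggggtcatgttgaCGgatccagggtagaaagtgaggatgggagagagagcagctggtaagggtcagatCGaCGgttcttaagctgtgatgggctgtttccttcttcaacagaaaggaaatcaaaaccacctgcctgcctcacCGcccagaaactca
Tet3: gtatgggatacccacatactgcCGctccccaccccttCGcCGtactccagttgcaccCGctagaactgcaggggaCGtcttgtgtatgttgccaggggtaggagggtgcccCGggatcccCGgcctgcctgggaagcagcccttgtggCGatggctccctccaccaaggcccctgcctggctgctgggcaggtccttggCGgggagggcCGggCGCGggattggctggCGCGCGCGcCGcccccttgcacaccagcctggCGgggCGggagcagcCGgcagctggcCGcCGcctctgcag
Tet2: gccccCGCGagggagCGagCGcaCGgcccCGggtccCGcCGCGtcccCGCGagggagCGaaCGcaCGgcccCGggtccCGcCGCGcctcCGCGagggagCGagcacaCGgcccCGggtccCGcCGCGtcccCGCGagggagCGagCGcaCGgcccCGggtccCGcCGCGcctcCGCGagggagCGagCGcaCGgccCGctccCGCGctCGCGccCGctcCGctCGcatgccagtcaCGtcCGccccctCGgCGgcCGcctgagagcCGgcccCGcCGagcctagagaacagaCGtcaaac

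The Dnmt1 upstream window held 2 CG pairs and the downstream one 33, the Dnmt3l window 6, the Tet3 window 22 and the Tet2 window 57. The median of all 32851 windows of this length was 7. Windows were found for 9 members, 16 in all, and 12 of these were above that median. The E-box CANNTG, searched on both strands as letters that read alike on each, was in 12 of the 16 windows and in 72.3% of all windows. The homeobox-type letters TAATTG and TAATTA, searched on both strands, were in 0 of the 16 and in 8.0% and 5.29% of all windows. Counts per gene do not tell which start was used. Dnmt1 lies at chr9:20907206-20959888, Dnmt3l at chr10:78042287-78063622, Tet3 at chr6:83362373-83457208, Tet2 at chr3:133463677-133545136, Dppa3 at chr6:122626424-122630271 and Kdm1b at chr13:47043373-47085279. Dnmt3a lies at chr12:3801559-3914443, Dnmt3b at chr2:153649411-153687730, Uhrf1 at chr17:56303337-56323486 and Tet1 at chr10:62804570-62887469, all on GRCm38.p6.

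Libraries held 7656108 to 9805287 counts and 18796 to 20694 detected genes. Replicates differed beyond counting error in every group (chi-square per degree of freedom 8.68 in SAF-WT to 31.0 in PF-WT). The summed level of 17 oocyte markers was 536 and 247 CPM (normalised read counts, scaled to library size with TMM factors) in SAF-TF, 22702 and 17873 CPM in PF-TF, 512 and 2933 CPM in SAF-WT, and 8673 and 8008 CPM in PF-WT. None of the 17 was at 0 in any library, and SAF-WT replicate 2 had 5.73 times the oocyte sum of SAF-WT replicate 1. Of the oocyte markers, 16 of 17 were lower in SAF-TF than in PF-TF and 11 of 17 lower in small antral than in preantral WT follicles. The 3 luteal markers summed to between 12113 and 12301 CPM in SAF-TF and to between 7.20 and 12.8 CPM in the other groups. Summed theca and steroidogenic markers ran from 14218 to 24700 CPM in SAF-TF, against 1625 to 2876 CPM in PF-TF, and from 3464 to 4181 CPM in SAF-WT, against 736 to 993 CPM in PF-WT. Summed granulosa markers ran from 2058 to 3177 CPM in SAF-TF, against 3586 to 4113 CPM in PF-TF, and from 1120 to 1178 CPM in SAF-WT, against 2730 to 3679 CPM in PF-WT, and 2 of 8 fell with stage in TF and 5 of 8 in WT. A whole follicle was sequenced, so a smaller oocyte share and less RNA per oocyte cannot be told apart in any value below.

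Most of these genes took a smaller share of the library in small antral than in preantral follicles. By value this held for all but Tet2 in TF and for all but Tet1 and Tet2 in WT, called or not. In TF follicles 7 of 10 members fell past the threshold (edgeR quasi-likelihood test, Benjamini-Hochberg adjusted p under 0.05 over all genes tested) and 0 rose, against 25.0% of all genes lower and 18.2% higher. In WT follicles 5 fell and 1 rose past the threshold, against 22.5% of all genes lower and 12.7% higher. At an unadjusted p under 0.05, 9 fell and 1 rose (Tet2) in TF, and 7 fell and 2 rose in WT. No share of all genes is given here for these unadjusted counts. DESeq2 called 7 lower and 0 higher in TF, and 5 lower and 2 higher in WT. Among all genes DESeq2 called 4126 lower and 3693 higher in TF, and 3633 lower and 2854 higher in WT. The median log2 fold change of the members was -3.08 in TF and -1.43 in WT, beside -0.08 and -0.20 over all genes. RLE factors moved the median of all genes to 0.03 in TF and -0.04 in WT, and the authors' own scale factors moved it to 0.27 and 0.14. No member changed direction between stages under either scaling.

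**Figure D1:**
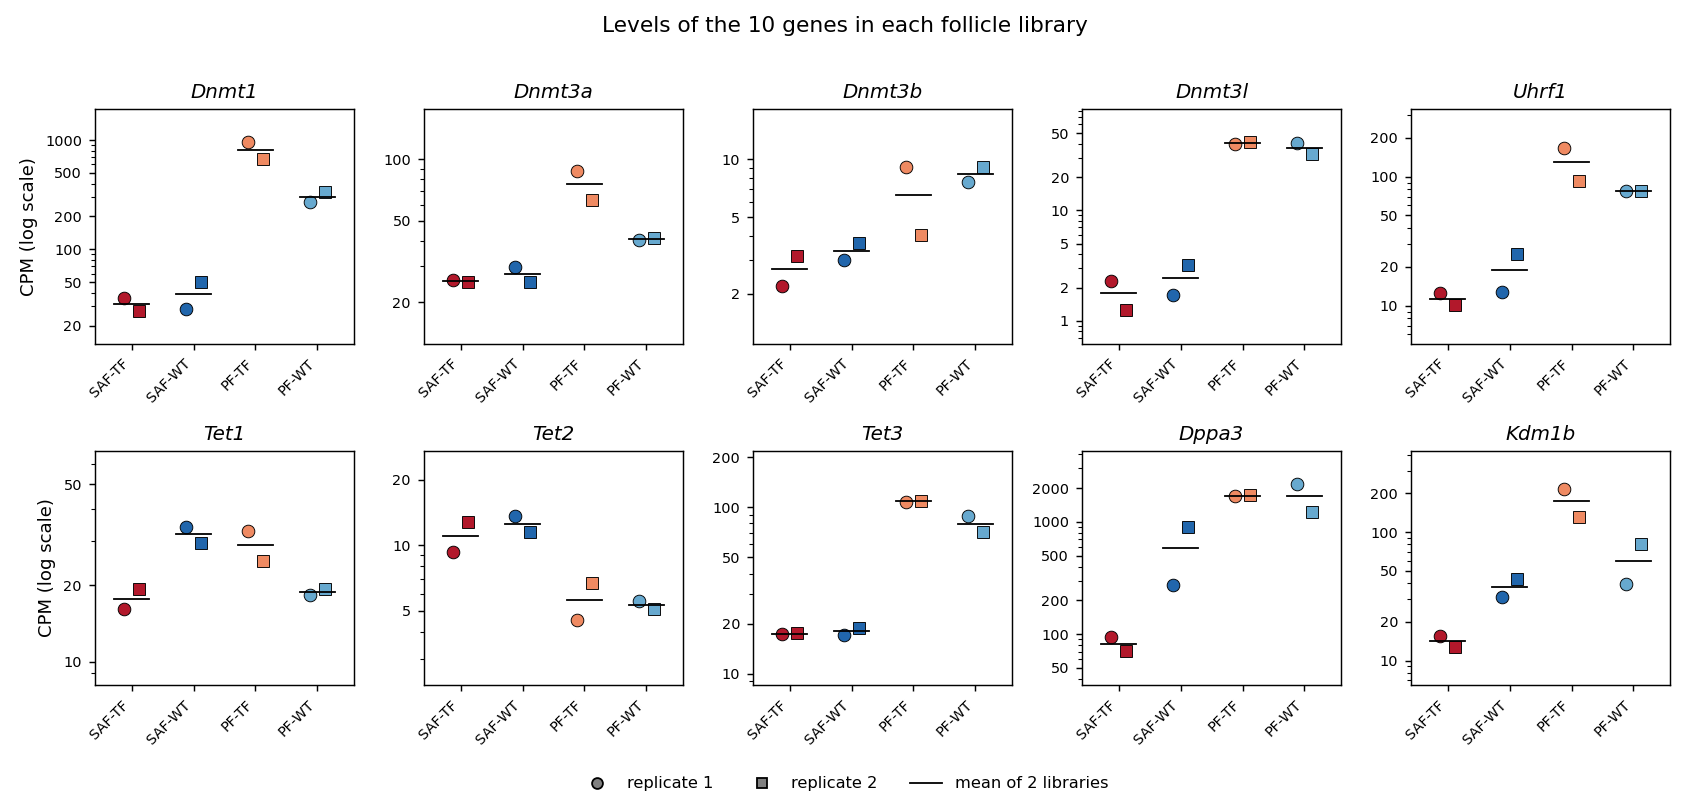
Level of each of the 10 genes in CPM (log axis) in the 8 libraries, by group from left SAF-TF, SAF-WT, PF-TF and PF-WT, with circles for replicate 1, squares for replicate 2 and a line at the mean of the 2 libraries. Dnmt1, Dnmt3a, Dnmt3b, Dnmt3l, Uhrf1, Tet3 and Dppa3 lie lower in all 4 SAF libraries than in all 4 PF libraries. Tet2 lies higher in all 4 SAF libraries, and Dppa3 spreads from 274 to 900 CPM within SAF-WT.

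Dnmt1, the maintenance methyltransferase, had 35.6 and 27.4 CPM in SAF-TF libraries, against 958 and 671 CPM in PF-TF libraries. In WT follicles it had 28.3 and 50.1 CPM in SAF-WT, against 270 and 336 CPM in PF-WT. The SAF libraries of both sources fell in one low range and the PF libraries stood apart, with no overlap between stages. Dnmt1 was 25.8-fold lower in SAF-TF than in PF-TF (log2 fold change -4.69 ± 0.35 SE, adjusted p = 2.11e-05) and 7.72-fold lower in small antral than in preantral WT follicles (-2.95 ± 0.32, adjusted p = 1.99e-04).

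Dnmt3a, which with DNMT3L sets maternal imprints, had 25.5 and 25.0 CPM in SAF-TF, against 88.3 and 63.6 CPM in PF-TF. Its WT levels were 29.8 and 25.0 CPM in SAF-WT, against 40.3 and 41.4 CPM in PF-WT. Stages did not overlap in either source, and the SAF libraries of the sources lay in one range. Dnmt3a fell 3.0-fold in TF (log2 fold change -1.59 ± 0.26, adjusted p = 0.00104), and in WT its difference of -0.58 ± 0.25 did not pass (adjusted p = 0.106). The difference between these stage effects was -1.01 ± 0.36 (adjusted p = 0.215). Dnmt3b, the other new-methylation enzyme, was scarce throughout, with 2.20 and 3.16 CPM in SAF-TF against 9.08 and 4.01 CPM in PF-TF. In WT it had 2.98 and 3.67 CPM in SAF-WT against 7.62 and 9.10 CPM in PF-WT. Its SAF libraries lay below its PF libraries in both sources, and neither difference passed (-1.28 ± 0.52, adjusted p = 0.0733 in TF, and -1.33 ± 0.52, adjusted p = 0.0725 in WT).

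Dnmt3l, the catalytically inactive partner, came close to the bottom of the range in small antral follicles. It had 2.31 and 1.24 CPM in SAF-TF, which were 21 and 11 counts, against 39.8 and 41.2 CPM in PF-TF. In WT it had 1.72 and 3.20 CPM in SAF-WT, which were 15 and 27 counts, against 40.8 and 32.3 CPM in PF-WT. The levels of the sources interleaved at both stages. The fold was 22.6 in TF (log2 fold change -4.50 ± 0.43, adjusted p = 6.47e-05) and 14.8 in WT (-3.89 ± 0.42, adjusted p = 1.87e-04). Dnmt3l shares 67 exonic bases with Aire on the opposite strand, and the strand setting of the counts is not given in the sources used here, so reads there cannot be told apart. Aire had 3 and 4 counts in SAF-TF, against 27 and 75 in PF-TF, and 0 and 0 in SAF-WT, against 52 and 59 in PF-WT.

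Uhrf1, the DNMT1 guide, had 12.5 and 10.2 CPM in SAF-TF, against 167 and 92.5 CPM in PF-TF. In WT it had 12.8 and 25.2 CPM in SAF-WT, against 77.3 and 77.1 CPM in PF-WT. Stages stood apart in both sources, while SAF-WT replicate 2 was the highest of the small antral libraries. Uhrf1 was 11.4-fold lower in SAF-TF than in PF-TF (log2 fold change -3.51 ± 0.40, adjusted p = 1.49e-04) and 4.06-fold lower in small antral than in preantral WT follicles (-2.02 ± 0.37, adjusted p = 0.00298). Summed replication and S phase markers, 10 genes, ranged from 574 to 738 CPM in SAF-TF, from 1097 to 1252 CPM in PF-TF, from 1146 to 1237 CPM in SAF-WT and from 1392 to 1956 CPM in PF-WT. Of these 10, 6 fell with stage in TF and 5 in WT. Their part in the fall of Dnmt1 and Uhrf1 was not tested.

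The 3 methylcytosine dioxygenases did not move together. Tet3, the form known for acting in the mouse zygote, had 17.4 and 17.5 CPM in SAF-TF, against 108 and 110 CPM in PF-TF. In WT it had 17.1 and 19.0 CPM in SAF-WT, against 88.9 and 71.0 CPM in PF-WT. Its replicates were close and its stages did not overlap, with falls of 6.24-fold in TF (log2 fold change -2.64 ± 0.23, adjusted p = 4.54e-05) and 4.43-fold in WT (-2.15 ± 0.23, adjusted p = 1.90e-04).

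Tet2 ran the other way. It had 9.35 and 12.7 CPM in SAF-TF, against 4.54 and 6.72 CPM in PF-TF, and 13.7 and 11.5 CPM in SAF-WT, against 5.52 and 5.10 CPM in PF-WT. Every SAF library lay above every PF library. The rise passed in WT (2.37-fold, log2 fold change 1.24 ± 0.39, adjusted p = 0.0336) and not in TF (0.97 ± 0.39, adjusted p = 0.0690), and the difference between the sources was -0.27 ± 0.55 (adjusted p = 0.872). The WT call was lost in 6 of 8 fits that left out 1 library, and the TF value passed with RLE factors (adjusted p = 0.0465) and with the authors' factors (adjusted p = 0.0221). Summed stroma markers, 6 of 6 of which rose with stage in each source, ran from 1071 to 1633 CPM in SAF-TF, against 34.8 to 81.2 CPM in PF-TF, and from 2250 to 2465 CPM in SAF-WT, against 139 to 327 CPM in PF-WT. Macrophage and immune markers rose with stage for 6 of 6 genes in TF and for 0 of 6 in WT by edgeR, with 1 higher and 0 lower at an unadjusted p under 0.05 and 1 higher and 0 lower with DESeq2 in WT. Endothelial markers rose for 3 of 5 in TF, and in WT 2 of 5 rose and 1 fell, Pecam1 (log2 fold change -1.45 ± 0.47, adjusted p = 0.0374). The part of these cells in the Tet2 difference was not tested.

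Tet1 had 16.2 and 19.3 CPM in SAF-TF, against 32.9 and 24.9 CPM in PF-TF, and 34.0 and 29.5 CPM in SAF-WT, against 18.3 and 19.4 CPM in PF-WT. Both SAF-TF libraries lay below both PF-TF libraries, and both SAF-WT libraries above both PF-WT libraries. Neither stage difference passed (log2 fold change -0.70 ± 0.28, adjusted p = 0.0685 in TF, and 0.75 ± 0.28, adjusted p = 0.0632 in WT). The WT rise passed with RLE factors (0.91, adjusted p = 0.0330), with the authors' factors (1.10, adjusted p = 0.0136) and with DESeq2 (0.91, adjusted p = 0.0246).

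Dppa3, the oocyte protein that shields maternal methylation, had 94.8 and 70.3 CPM in SAF-TF, against 1706 and 1736 CPM in PF-TF. In WT it had 274 and 900 CPM in SAF-WT, against 2162 and 1228 CPM in PF-WT. Stages did not overlap in either source, and SAF-WT replicate 2, the library with the higher oocyte sum, came nearest to the preantral range. Dppa3 was 20.8-fold lower in SAF-TF than in PF-TF (log2 fold change -4.38 ± 0.53, adjusted p = 2.19e-04) and 2.89-fold lower in small antral than in preantral WT follicles (-1.53 ± 0.47, adjusted p = 0.0309). Without SAF-WT replicate 1 the WT value was -0.92 (adjusted p = 0.115), without SAF-WT replicate 2 it was -2.63 (adjusted p = 0.00213), and without PF-WT replicate 1 it was -0.96 (adjusted p = 0.180). A copy that the gene table describes as a Dppa3 pseudogene, Gm6269, had 2 to 26 counts, or 0.0836% to 0.321% of the Dppa3 counts.

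Kdm1b, the histone demethylase, had 15.4 and 12.9 CPM in SAF-TF, against 215 and 131 CPM in PF-TF. In WT it had 31.4 and 43.2 CPM in SAF-WT, against 39.4 and 80.2 CPM in PF-WT. The TF stages stood far apart and the WT stages overlapped. Kdm1b was 12.2-fold lower in SAF-TF than in PF-TF (log2 fold change -3.61 ± 0.40, adjusted p = 1.41e-04), and in WT the difference was -0.68 ± 0.37 (adjusted p = 0.175). Without PF-WT replicate 1 the WT value was -0.99 (adjusted p = 0.0456), and without PF-WT replicate 2 it was -0.08 (adjusted p = 0.889). Kdm1b shares 505 exonic bases with Dek on the opposite strand. Dek had 2609 and 3206 counts in SAF-TF, against 2051 and 2776 in PF-TF, and 7097 and 5615 in SAF-WT, against 3633 and 4491 in PF-WT, and reads in the shared bases cannot be assigned.

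**Figure D2:**
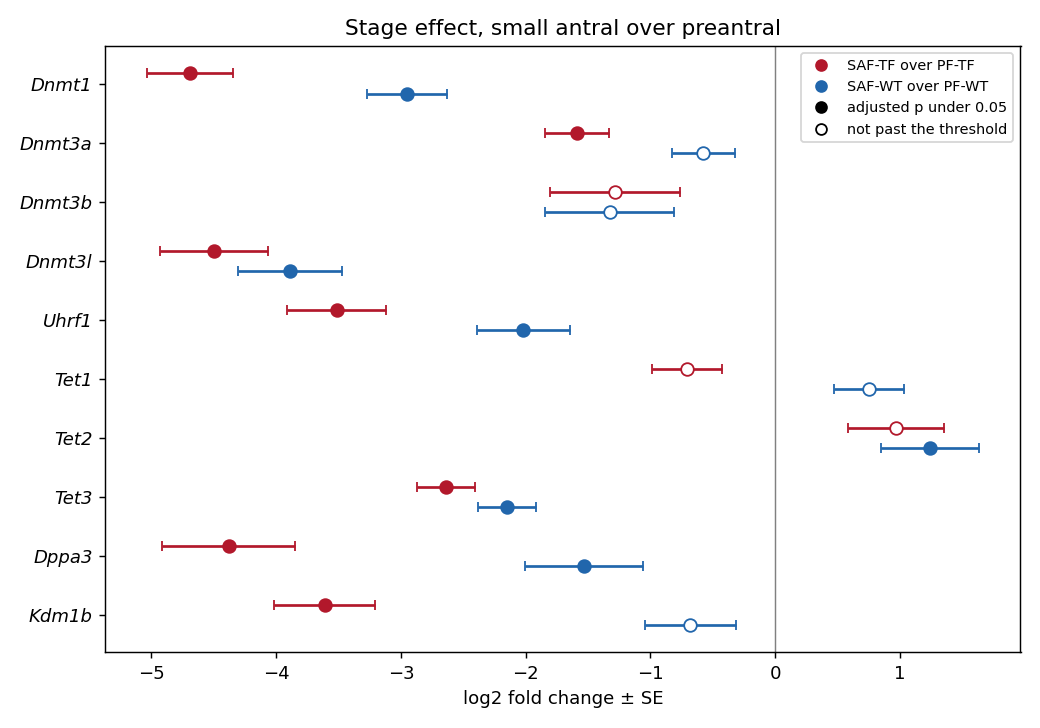
Log2 fold change between stages with its SE for each gene, SAF-TF over PF-TF in red above SAF-WT over PF-WT in blue, filled where the edgeR adjusted p was under 0.05. Dnmt1, Dnmt3l, Uhrf1, Tet3 and Dppa3 are filled left of 0 in both sources, Dnmt3a and Kdm1b are filled in TF and open in WT, and Tet2 is right of 0 in both.

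In the authors' deposited table, which compared the stages within each source, 8 members had an FDR under 0.05 in TF (1 higher and 7 lower) and 6 in WT (2 higher and 4 lower). The share of all genes under that FDR is not given here, so these counts have no background beside them. The 2 higher in WT in the authors' deposited table were Tet1 (log2 fold change 1.10, FDR 7.6e-13) and Tet2 (1.59, FDR 2.05e-05). Dppa3 had an FDR of 0.902 for its WT log2 fold change of -1.20 in the authors' deposited table.

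The levels were also set beside the oocyte sum of their own library. Per 1000 CPM of summed oocyte markers, Dnmt1 stood at 66.4 and 111 in SAF-TF, against 42.2 and 37.5 in PF-TF, and at 55.4 and 17.1 in SAF-WT, against 31.1 and 42.0 in PF-WT. Dnmt3l stood at 4.31 and 5.02 in SAF-TF, against 1.75 and 2.31 in PF-TF, and at 3.36 and 1.09 in SAF-WT, against 4.71 and 4.03 in PF-WT. On this scale both genes were higher in both SAF-TF libraries than in both PF-TF libraries. Dnmt1 overlapped between the WT stages and Dnmt3l was lower in both SAF-WT libraries. Tet3 had 32.4 and 70.8 in SAF-TF, against 4.76 and 6.13 in PF-TF, and 33.4 and 6.46 in SAF-WT, against 10.2 and 8.87 in PF-WT. Every member was higher on this scale in both SAF-TF libraries than in both PF-TF libraries. In WT, Dnmt3a, Dnmt3b, Tet1, Tet2, Dppa3 and Kdm1b were higher in both SAF-WT libraries. Uhrf1 and Tet3, like Dnmt1, overlapped between the WT stages, and only Dnmt3l was lower. Dppa3 stood at 536 and 307 in SAF-WT, against 249 and 153 in PF-WT. The mean oocyte sum was 51.8-fold lower in SAF-TF than in PF-TF and 4.84-fold lower in small antral than in preantral WT follicles, and the part of the oocyte share in the stage differences was not tested.

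**Figure D3:**
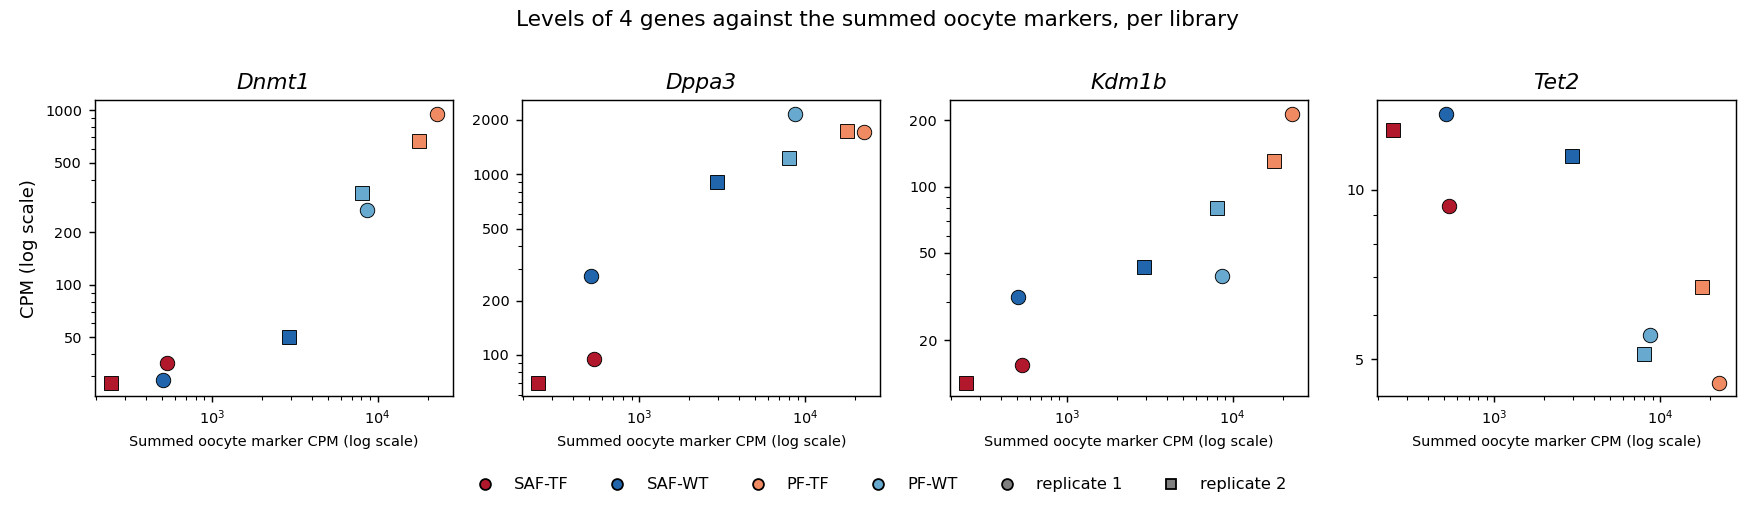
CPM of Dnmt1, Dppa3, Kdm1b and Tet2 against the summed CPM of 17 oocyte markers in each library (log axes), coloured by group, with circles for replicate 1 and squares for replicate 2. Dnmt1, Dppa3 and Kdm1b are higher in the libraries with oocyte sums of 8008 CPM and more than in the SAF-TF libraries, Tet2 is lower there than in every SAF library, and SAF-WT replicate 2 lies between the stages on the oocyte axis at 2933 CPM.

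Preantral follicles gave no call between the sources. In PF-TF against PF-WT 0 of 10 members passed in either direction, against 0.0669% of all genes higher and 0.151% lower. At an unadjusted p under 0.05, 3 were higher and 0 lower, and DESeq2 called 3 higher and 0 lower. The edgeR shares above do not apply to these counts. Among all genes DESeq2 called 332 higher and 990 lower. No share of all genes is given here for an unadjusted p under 0.05, so counts at that threshold have no background beside them. The 3 higher members were Dnmt1 (log2 fold change 1.43 ± 0.30, adjusted p = 0.0589), Kdm1b (1.53 ± 0.37, adjusted p = 0.0738) and Dnmt3a (0.89 ± 0.25, adjusted p = 0.0961) by edgeR. With DESeq2 their adjusted p-values were 7.27e-04, 0.00206 and 0.0477. Both PF-TF libraries lay above both PF-WT libraries for these 3 and for Uhrf1, Tet1 and Tet3. How many of all genes stood apart in this way is not given here. Dppa3 (0.02 ± 0.46, adjusted p = 0.989), Dnmt3l (0.15 ± 0.35, adjusted p = 0.854), Dnmt3b and Tet2 overlapped. The mean oocyte sum was 2.43-fold higher in PF-TF than in PF-WT, with 0 of its 17 genes past the threshold in edgeR (9 higher and 0 lower at an unadjusted p under 0.05, and 1 higher with DESeq2). Per 1000 CPM of summed oocyte markers, Dnmt1 and Kdm1b overlapped between the sources. Every other member was lower on this scale in both PF-TF libraries than in both PF-WT libraries. Tet3, for example, stood at 4.76 and 6.13 in PF-TF, against 10.2 and 8.87 in PF-WT. The part of the oocyte share in these values was not tested. Of 6 stroma markers, 6 were lower at an unadjusted p under 0.05 and 4 with DESeq2, and of 6 macrophage and immune markers 5 and 4, with 0 past the edgeR threshold in either list. The part of these cells in the values of the 10 genes was not tested. Without PF-WT replicate 2, Dnmt1 (1.60, adjusted p = 0.0469) and Kdm1b (2.14, adjusted p = 0.0230) passed.

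In small antral follicles Dppa3 and Kdm1b were lower in TF. Of the 10 members, 2 were lower and 0 higher in SAF-TF than in SAF-WT, against 5.34% of all genes lower and 4.61% higher. At an unadjusted p under 0.05, 3 were lower and 0 higher, as with DESeq2. Among all genes DESeq2 called 1613 lower and 1236 higher. No share of all genes is given here for the unadjusted count. Dppa3 was 7.11-fold lower in SAF-TF (log2 fold change -2.83 ± 0.50, adjusted p = 0.0115), at 94.8 and 70.3 CPM in SAF-TF against 274 and 900 CPM in SAF-WT. Kdm1b was 2.64-fold lower (-1.40 ± 0.38, adjusted p = 0.0472), at 15.4 and 12.9 CPM in SAF-TF against 31.4 and 43.2 CPM in SAF-WT. Neither gene overlapped between the sources.

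The mean oocyte sum was 4.40-fold lower in SAF-TF, with 2 of the 17 markers lower past the threshold, and its part in these differences was not tested. Per 1000 CPM of summed oocyte markers, Dppa3 stood at 177 and 284 in SAF-TF, against 536 and 307 in SAF-WT, and Kdm1b at 28.7 and 52.1 in SAF-TF, against 61.4 and 14.7 in SAF-WT. On this scale Dppa3 was lower in both SAF-TF libraries and Kdm1b overlapped between the sources. Without SAF-WT replicate 2 the log2 fold change of Dppa3 was -1.73 (adjusted p = 0.0449), and without SAF-TF replicate 1 or replicate 2 its adjusted p was 0.0813 and 0.0508. Kdm1b lost its call without any one of the 4 SAF libraries, with adjusted p-values from 0.130 to 0.222. Luteal markers, 3 of 3 higher in SAF-TF, moved with this comparison, and their part was not tested.

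The other members gave no edgeR call between SAF-TF and SAF-WT, and DESeq2 called Tet1 lower (log2 fold change -0.89, adjusted p = 0.0490). By edgeR, Tet1 (log2 fold change -0.84 ± 0.28, adjusted p = 0.0864) and Uhrf1 (-0.75 ± 0.38, adjusted p = 0.224) did not pass, and both were lower in both SAF-TF libraries. Dnmt1 (-0.31 ± 0.30, adjusted p = 0.530), Dnmt3a, Dnmt3b, Dnmt3l, Tet2 and Tet3 overlapped between the sources. Tet3 was nearest to 0, at -0.05 ± 0.23 (adjusted p = 0.919).

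**Figure D4:**
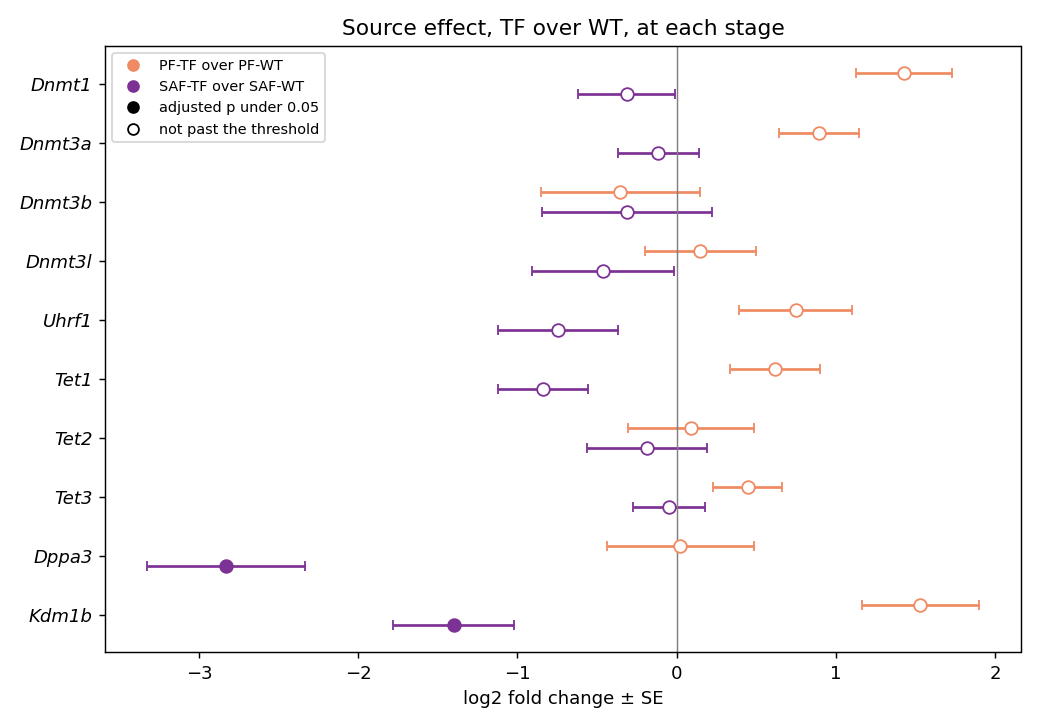
Log2 fold change between sources with its SE for each gene, PF-TF over PF-WT in orange above SAF-TF over SAF-WT in purple, filled where the edgeR adjusted p was under 0.05. Dppa3 and Kdm1b are the filled points, both in SAF and both left of 0, while the PF values of Dnmt1, Dnmt3a and Kdm1b lie right of 0 without passing.

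The stage difference itself was compared between the sources. It was more negative in TF for Kdm1b (interaction on the log2 scale -2.93 ± 0.53, adjusted p = 0.0380), 1 of 10 members, against 0.245% of all genes with a lower and 0.658% with a higher stage difference in TF, and 0 members were higher. At an unadjusted p under 0.05, 6 members were lower and 0 higher, and DESeq2 called 4 lower and 0 higher. The edgeR shares above do not apply to these counts. Among all genes DESeq2 called 328 lower and 482 higher. No share of all genes is given here for an unadjusted p under 0.05, so counts at that threshold have no background beside them. Dppa3 (-2.85 ± 0.67, adjusted p = 0.0871), Dnmt1 (-1.74 ± 0.43, adjusted p = 0.0961) and Tet1 (-1.46 ± 0.40, adjusted p = 0.125) did not pass in edgeR. The 17 oocyte markers shifted the same way, with a median interaction of -2.40. Of these markers 1 was lower past the edgeR threshold, 14 at an unadjusted p under 0.05 and 5 with DESeq2, and 0 were higher. The part of the oocyte share in the interaction values was not tested. The Kdm1b call was lost in 5 of 8 fits that left out 1 library. The TF and WT stage contrasts share no library, but each interaction rests on all 8.

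Over both stages 0 of 10 members differed between TF and WT, in either direction, against 2.16% of all genes higher and 5.65% lower. At an unadjusted p under 0.05 the count was 0, and it was 0 with DESeq2. Dppa3 came nearest (log2 fold change -1.40 ± 0.64, adjusted p = 0.193), and for Kdm1b, lower in SAF-TF and higher in PF-TF by value, the average was 0.11 ± 0.60 (adjusted p = 0.929).

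Per kilobase of the longest annotated transcript, Dppa3 was first in each group, with 99.1 ± 20.8 CPM per kilobase in SAF-TF, 2066 ± 26.1 in PF-TF, 705 ± 531 in SAF-WT and 2035 ± 793 in PF-WT (SD, n = 2 each). Dnmt1 was second in SAF-TF (5.37 ± 0.99), PF-TF (139 ± 34.6) and PF-WT (51.6 ± 7.96), and overlapped there with neither neighbour. In SAF-WT, Kdm1b (7.49 ± 1.68) overlapped with Dnmt1 (6.68 ± 2.62), and Dnmt1 with Uhrf1 (5.31 ± 2.44). Dnmt3l stood at 22.2 ± 0.58 CPM per kilobase in PF-TF and 20.1 ± 3.32 in PF-WT, above Dnmt3a at 7.84 ± 1.80 in PF-TF and 4.22 ± 0.08 in PF-WT. In small antral follicles that order turned, with Dnmt3l at 0.97 ± 0.41 in SAF-TF and 1.35 ± 0.57 in SAF-WT, below Dnmt3a at 2.61 ± 0.03 in SAF-TF and 2.83 ± 0.35 in SAF-WT. Among the dioxygenases Tet3 led in PF-TF (9.98 ± 0.10) and PF-WT (7.33 ± 1.16), and Tet1 led in SAF-WT (2.21 ± 0.22). Dnmt3b and Tet2 closed the order, Dnmt3b last in SAF-TF (0.62 ± 0.16) and SAF-WT (0.77 ± 0.11) and Tet2 last in PF-TF (0.61 ± 0.17) and PF-WT (0.58 ± 0.03). Other neighbours whose libraries overlapped were Uhrf1 and Kdm1b, Kdm1b and Dnmt3a, Tet1 and Tet2, Tet2 and Dnmt3l, and Dnmt3l and Dnmt3b in SAF-TF. They were Uhrf1 and Kdm1b, and Tet1 and Dnmt3b, in PF-TF, Tet2 and Dnmt3l in SAF-WT, and Uhrf1 and Dnmt3l, and Kdm1b and Tet3, in PF-WT.

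Genes around these enzymes were taken from 5 lists of 46 genes, all tested. With stage 6 rose and 8 fell in TF, and 2 rose and 7 fell in WT. Over all genes 18.2% were higher and 25.0% lower in TF, and 12.7% higher and 22.5% lower in WT, so the 46 genes were called no more often than genes at large. Of 6 maintenance partners 3 fell in TF and 1 in WT. Usp7, a deubiquitinase that binds DNMT1, fell in both (log2 fold change -1.76 ± 0.21, adjusted p = 2.24e-04 in TF, and -1.76 ± 0.21, adjusted p = 3.53e-04 in WT), and the chromatin remodeller Hells (-1.19 ± 0.28) and its partner Cdca7 (-1.30 ± 0.34) fell in TF. Of 12 imprint protection and histone genes 2 fell in TF and 3 in WT, near the shares of all genes lower (25.0% in TF and 22.5% in WT). Zfp57, the zinc finger protein that binds methylated imprints, fell most among the list's called genes, at -5.44 ± 0.68 (adjusted p = 2.54e-04) in TF and -5.18 ± 0.67 (adjusted p = 4.87e-04) in WT. The histone methyltransferase Setdb1 fell in both (-1.40 ± 0.27 in TF and -1.11 ± 0.27 in WT), and Trim28, the partner of ZFP57, in WT (-0.92 ± 0.27).

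Of the readers of methylated DNA, 2 of 9 rose in TF and 1 of 9 in WT, near the shares of all genes higher (18.2% in TF and 12.7% in WT). Zbtb4, a zinc finger reader, rose in both (log2 fold change 2.68 ± 0.54, adjusted p = 0.00319 in TF, and 1.54 ± 0.52, adjusted p = 0.0423 in WT), and Mbd2, a methyl-CpG binding protein, in TF (1.02 ± 0.23, adjusted p = 0.00589). Of 11 genes of base excision and repair, 3 rose and 2 fell in TF, and 0 rose and 2 fell in WT. The scaffold Xrcc1 fell in both (-2.75 ± 0.46 in TF and -1.71 ± 0.46 in WT). Gadd45b, a stress-induced gene linked to active demethylation, rose in TF (2.81 ± 0.45, adjusted p = 0.00101) and fell in WT (-1.40 ± 0.43, adjusted p = 0.0305), with an interaction of 4.22 ± 0.62 (adjusted p = 0.0215). Gadd45a rose in TF (3.68 ± 0.26) and was higher in SAF-TF than in SAF-WT (2.16 ± 0.24, adjusted p = 0.00222). Its interaction was 3.28 ± 0.34 (adjusted p = 0.00481). Gadd45a and Gadd45b were the 2 of the 46 list genes with a higher interaction past the threshold, and 0 were lower. Over all genes 0.658% were higher and 0.245% lower for the interaction. Of 8 metabolic genes, Mat2b, the regulatory subunit of the methyl donor synthase, fell in both (-1.98 ± 0.19 in TF and -1.96 ± 0.19 in WT), and Idh1, which makes the TET cofactor oxoglutarate, rose in both (3.22 ± 0.34 in TF and 0.94 ± 0.32 in WT).

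Between sources, 0 of the 46 genes passed in PF by edgeR, with 2 higher and 5 lower at an unadjusted p under 0.05 and 2 higher and 3 lower with DESeq2. Among all genes DESeq2 called 332 higher and 990 lower in PF, and the unadjusted share is not given here. In SAF-TF against SAF-WT, 3 of the 46 were higher and 2 lower, near the shares of all genes (4.61% higher and 5.34% lower). At SAF the higher ones were Gadd45a, Gadd45b (2.08 ± 0.44) and Idh1 (2.33 ± 0.33), and the lower ones Hells (-1.16 ± 0.28) and the repair polymerase Polb (-0.82 ± 0.21), all on the log2 scale. Over both stages 1 of the 46 was higher in TF and 2 lower, near the shares of all genes (2.16% higher and 5.65% lower). Kdm5b, a histone demethylase, was the higher one (0.77 ± 0.20, adjusted p = 0.0451). The lower ones were Hells (-0.95 ± 0.21, adjusted p = 0.0293) and Pcna, the replication clamp (-0.81 ± 0.17, adjusted p = 0.0247).

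Genes whose log2 CPM followed each member most closely over the 8 libraries were found among 8782 genes with a mean of at least 10 CPM, as a description. The libraries share their stages and their scaling. Dnmt1 was followed most closely by Pabpc4 (Pearson r = 0.994), a poly(A)-binding protein gene, with Mfap3 and Patl2 next. The nearest gene to Dnmt3l was C87977 (r = 0.999), to Tet3 Dicer1 (r = 0.999), which processes small RNAs, and to Uhrf1 Ccno (r = 0.995). Dppa3 was nearest to Pinlyp (r = 0.995), with the subcortical maternal complex gene Ooep also close (r = 0.989), and Kdm1b to the germ cell helicase Ddx4 (r = 0.990). For Dnmt3a the nearest was Med20 (r = 0.983), for Dnmt3b Rqcd1 (r = 0.996), for Tet1 Atxn7 (r = 0.974) and for Tet2 Dyrk2 (r = 0.987).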

How the data were processed

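Libraries were made with a SMARTer low-input kit, per the labels' protocols, and the alignment used HISAT2 2.0.1 with GRCm38, per the submitters' processing notes. How reads were assigned to genes, with which annotation and strand setting, is not given in the sources used here. Per the file headers, the authors deposited raw counts per gene and library in 1 table per source, with a normalized signal per group, a log2 ratio of SAF over PF and an FDR (adjusted p-value); the test behind the FDR is not named.

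The 21997 genes in both tables were filtered with filterByExpr (min.count 10, min.total.count 15). The main test was the edgeR 4.0.16 quasi-likelihood F test (R 4.3.3) with TMM factors, 1 mean per group and 4 residual degrees of freedom, or, over both stages, additive terms for stage and source with 5, and Benjamini-Hochberg adjustment over 17925 genes at 0.05. The biological coefficient of variation was 0.303. SE is the log2 fold change over the square root of F. The pipeline was tested on simulated data. DESeq2 1.42.0 was an alternative. Lengths are those of the longest GENCODE transcript, and sequences and loci are from RefSeq.

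Members and lists were chosen with earlier results of these data known. Named genes were all members, the 3 most alike in log2 CPM (0.5 added to each count) for each, and up to 3 per list with the smallest p per stage contrast. Not all are printed; list genes called between sources were named after their values were seen. Alternatives were other scalings, no filter, DESeq2, the replicate number as a block, only the 4 libraries compared, and each library left out.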

Additional observations from a re-analysis of the deposited data

Results flagged for a closer look

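The stage difference of Tet1 ran in opposite directions in the sources, in every library: both SAF-TF libraries lay below both PF-TF libraries, and both SAF-WT libraries above both PF-WT libraries. The difference between the stage effects was -1.46 on the log2 scale, with an edgeR adjusted p of 0.125 that did not pass, and DESeq2 gave an adjusted p of 0.0428.

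The stage difference of Kdm1b was more negative in TF than in WT (difference on the log2 scale -2.93, edgeR adjusted p = 0.0380), with both SAF-TF libraries below both PF-TF libraries and the WT stages overlapping. The same difference had a median of -2.40 over the 17 oocyte markers, and the part of the oocyte share in the Kdm1b value was not tested.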

How the results depend on the processing

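With 2 libraries per group and 4 residual degrees of freedom, 1 library can decide a call. Of 16 member calls, 223 values under the alternatives gave 200 that kept the call, 23 that lost it and 0 of opposite direction. Of 44 member differences without a call, 597 values gave 536 on the same side, 20 that passed and 41 of opposite direction. Where a count moved, the cause was not tested.

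With RLE factors and with the authors' factors 1 member was higher with stage in TF and 2 in WT. With the authors' factors 3594 genes were higher with stage in WT, 51 lower in PF-TF, and Dppa3 lost its WT stage call (-1.20, adjusted p = 0.0668). RLE factors gave 17 genes lower in PF-TF. Without a low-count filter 36 genes were higher and 171 lower in PF-TF. A fit of only the 4 libraries compared gave 9 genes lower in PF-TF, and 2126 higher and 1738 lower in SAF-TF. DESeq2 gave 2 members higher with stage in WT, 3 higher in PF-TF, and 4 with a lower interaction. Its counts of all genes were 332 higher and 990 lower in PF-TF, 1613 lower in SAF-TF, 482 higher and 328 lower for the interaction, and 1177 higher and 1954 lower over both stages.

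Replicate numbers come from the titles, which state no pairing, and deviations of same-numbered libraries correlated at -0.0976 to 0.0789. With 2 libraries per group these correlations cannot tell whether same-numbered libraries shared an animal or a batch. With the number as a replicate block, 2 genes were higher and 4 lower in PF-TF, 485 higher and 584 lower in SAF-TF, 62 higher and 12 lower for the interaction, and 115 higher and 488 lower over both stages. Under the block 1 member was lower in SAF-TF, with Kdm1b at an adjusted p of 0.0782, and 0 had a lower interaction, with Kdm1b at -2.95 (adjusted p = 0.0710). Dppa3 in the WT stage effect was at -1.57 (adjusted p = 0.0508).

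Leaving out each library in turn gave 0 to 1 members higher with stage in TF and in WT, 0 to 2 higher in PF-TF, 0 to 2 lower in SAF-TF and 0 to 1 with a lower interaction. All genes higher with stage ran from 2083 to 3960 in TF and from 926 to 2591 in WT, and those lower in WT from 2149 to 4003. In PF-TF 1 to 258 genes were higher and 0 to 677 lower, and in SAF-TF 77 to 1354 higher and 50 to 1256 lower. The interaction gave 24 to 242 higher and 4 to 103 lower, and both stages 11 to 729 higher and 29 to 1130 lower.

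Directions that turned had no call. In PF-TF these were Dppa3 (-0.0152 with RLE factors, -0.0153 with DESeq2, -0.0789 with the authors' factors, -0.33 to 0.53 over the leave-outs), Dnmt3b (-1.06 to 0.0839), Dnmt3l (-0.00811 to 0.371) and Tet2 (-0.27 to 0.33). In SAF-TF they were Tet3 (0.00894 in the fit of 4 libraries, -0.121 to 0.0264), Dnmt1 (-0.67 to 0.15), Dnmt3a (-0.240 to 0.0158), Dnmt3l (-0.970 to 0.0449) and Tet2 (-0.421 to 0.0262). The interaction of Dnmt3b was -0.00899 with RLE factors, -0.0104 with DESeq2 and -0.34 to 0.81 over the leave-outs, and that of Tet2 -0.51 to 0.13. Over both stages Uhrf1 was -0.0591 with the authors' factors, -0.0122 with DESeq2 and -0.28 to 0.39, with Dnmt3l at -0.24 to 0.12, Tet1 at -0.29 to 0.11, Tet2 at -0.183 to 0.0601 and Kdm1b at -0.43 to 0.59.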
